A study of Oryctolagus cuniculus with 8 samples.

Results

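The AP-1 and EGR immediate early genes comprise the FOS family (FOS, FOSB, FOSL1, FOSL2), the JUN family (JUN, JUNB, JUND), the zinc finger genes EGR1 and EGR2, and ATF3. These 10 genes were looked up by symbol in the deposited expression table of 20586 genes, and 8 of them had an entry. JUNB and JUND were not analysed here. RNA-seq was performed on passage 1 stem cells of the infrapatellar fat pad, a depot inside the knee joint (IPFSCs, n = 4), and of inguinal subcutaneous adipose tissue (ScASCs, n = 4). The donors were New Zealand white rabbits, male and 4 months of age, and each culture gave 1 library. The cells carried no genetic change and had received no differentiation medium. Both groups were freed from tissue with collagenase and expanded in medium with fetal bovine serum, so no freshly isolated and no serum-starved cells were measured. The cultures were not sorted, and in such bulk samples fewer cells of a type and less RNA per cell cannot be told apart. The cells were donor-matched, and libraries of equal replicate number are treated here as sharing a rabbit, which the sample labels do not state.

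Immediate early genes are transcribed within minutes of a stimulus, without new protein synthesis, when serum, growth factors, adhesion or stress activate MAP kinases and the factors SRF and ELK. FOS and JUN proteins dimerize through leucine zippers into AP-1, which binds DNA elements in genes of proliferation, matrix turnover and inflammation. EGR proteins bind GC-rich elements through zinc fingers, and NAB proteins hold them back. Since these transcripts decay quickly, their level in a culture also depends on how the cells were fed and handled shortly before lysis.

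Levels are RPKM, reads scaled to transcript length and to the mapped reads of the library, so they can be compared between genes. A positive log2 fold change means more in IPFSCs. Since it was taken from log2(RPKM + 1), it is too small for genes of low expression. Genes whose mean RPKM exceeded 1 in IPFSCs or in ScASCs, 11294 in all, were tested with limma, and a gene was called at a Benjamini-Hochberg adjusted p under 0.05 over these genes. How many reads each library held is unknown. Relative to the deepest library, depth was 0.883 to 0.946 in IPFSCs and 0.825 to 1.00 in ScASCs. Of 11 stromal markers fixed for the check of the cell type, 10 had an entry, and all 10 lay above an RPKM of 1 in every library. The 7 endothelial markers summed to 0.0495 to 0.844 RPKM in IPFSCs and 0.392 to 2.63 RPKM in ScASCs. Among the 8 macrophage and leukocyte markers, PTPRC, CD163 and TYROBP were listed at 0 in every library, and the summed level of 13.4 to 27.8 RPKM in IPFSCs and 11.8 to 22.6 RPKM in ScASCs was mostly CD68. The 6 listed pericyte and smooth muscle genes, led by ACTA2, summed to 161 to 1418 RPKM in IPFSCs and 112 to 2289 RPKM in ScASCs, a wide range in both. The 4 adipocyte markers with an entry, of 6, summed to at most 8.46 RPKM in IPFSCs and 23.3 RPKM in ScASCs. The 4 epithelial markers with an entry, of 6, mostly KRT8, reached 6.07 RPKM in IPFSCs and 63.8 RPKM in ScASCs.

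The comparison asks whether the immediate early genes differ between stem cells of the 2 fat depots. FOS, EGR1 and FOSL2 were abundant in both cell types, with fold changes near 0. JUN, FOSB and FOSL1 had negative fold changes that did not pass the test. ATF3 was higher in the IPFSC library of every replicate number. Of the 7 genes tested, 0 were called in limma with the cell type as the sole term, and 1 (ATF3) had an unadjusted p under 0.05. Over all genes, limma called 4.98% (2.67% higher and 2.31% lower in IPFSCs), and 16.5% had an unadjusted p under 0.05. With the replicate number as a block, limma called 1 of the 7 genes (ATF3), against 8.05% of all genes (4.31% higher and 3.74% lower in IPFSCs). In that fit the unadjusted p was 0.00281 for ATF3 and 0.00879 for FOSB, which was lower in IPFSCs in every number. The adjusted p with the block was 0.313 for FOSL1, 0.539 for JUN, 0.994 for EGR1 and 0.995 for FOSL2. The median log2 fold change was 0.0024 over the 7 genes and −0.0035 over all 11294. EGR2 lay below the expression minimum and was not part of this test. ATF3 exceeded that minimum in IPFSCs alone, the cell type in which it was higher.

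**Figure D1:**
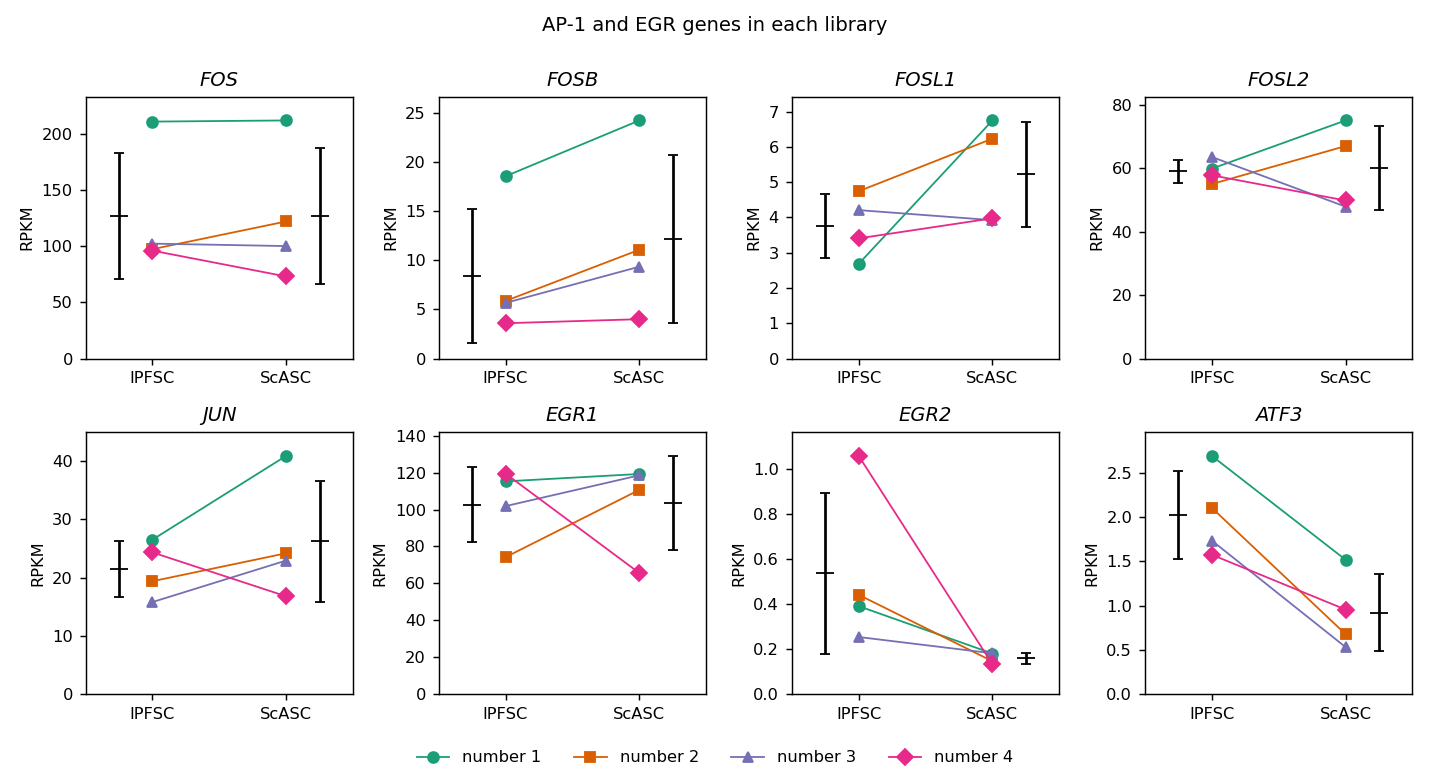
RPKM of the 8 genes in each library (y axes, linear from 0), with IPFSCs left of ScASCs; lines join libraries of the same replicate number, and black bars are the mean ± SD of 4 libraries. Number 1 is highest in both cell types for FOS, FOSB, JUN and ATF3, and the cell types do not overlap for EGR2 and ATF3.

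FOS, the founding member of its family, had 211, 97.5, 102 and 96.2 RPKM in IPFSC replicates 1 to 4, against 212, 122, 100.3 and 73.2 RPKM in ScASC replicates 1 to 4. In each cell type, number 1 stood far above the other 3 libraries, and the cell types overlapped throughout. The means were 127 ± 56.3 RPKM in IPFSCs and 127 ± 60.3 RPKM in ScASCs (SD, n = 4 each). FOS (ENSOCUG00000021506) had a log2 fold change of 0.02, with a 95% confidence interval of −0.79 to 0.83 (adjusted p = 0.993). With the replicate number as a block, its standard error was 0.12 in place of 0.36 (adjusted p = 0.939).

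FOSB, the member best known for its truncated and long-lived splice form in neurons, had 18.6, 5.87, 5.67 and 3.60 RPKM in IPFSC replicates 1 to 4, against 24.3, 11.1, 9.37 and 4.01 RPKM in ScASC replicates 1 to 4. The numbers stood in the same order in both cell types, from number 1 at the top to number 4 at the bottom. Within each number the IPFSC library was the lower one, by −0.37, −0.82, −0.64 and −0.12 on the log2 scale. The spread between numbers exceeded this difference, with 8.43 ± 6.85 RPKM in IPFSCs and 12.2 ± 8.61 RPKM in ScASCs (SD, n = 4 each). FOSB (ENSOCUG00000023019) thus had a log2 fold change of −0.49 (95% confidence interval −1.74 to 0.77, adjusted p = 0.801). It did not pass the test with the replicate number as a block either (standard error 0.13, adjusted p = 0.0796).

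FOSL1, which encodes FRA1, an AP-1 protein that lacks a strong transactivation domain and accumulates under sustained ERK signaling, had 2.68, 4.74, 4.21 and 3.40 RPKM in IPFSC replicates 1 to 4, against 6.75, 6.23, 3.92 and 3.97 RPKM in ScASC replicates 1 to 4. Unlike for FOS, number 1 held the lowest IPFSC value and the highest ScASC value. Its log2 fold change (ENSOCUG00000011143) was −0.38 (95% confidence interval −0.84 to 0.09, adjusted p = 0.437). FOSL2, which encodes FRA2, a regulator of bone and cartilage cells in mice, had 59.9, 55.1, 63.6 and 57.9 RPKM in IPFSC replicates 1 to 4, against 75.2, 67.1, 47.9 and 49.9 RPKM in ScASC replicates 1 to 4. FOSL2 varied least of the 8 genes, by 1.57-fold between its lowest and highest library. For FOSL2 (ENSOCUG00000010706) the log2 fold change was 0.0024 (95% confidence interval −0.33 to 0.34, adjusted p = 0.998), the narrowest interval of the 7 genes tested.

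JUN encodes the AP-1 subunit that is phosphorylated by JNK and can bind DNA as a homodimer, which FOS proteins cannot. It had 26.5, 19.4, 15.8 and 24.3 RPKM in IPFSC replicates 1 to 4, against 40.9, 24.2, 22.9 and 16.8 RPKM in ScASC replicates 1 to 4. The ScASC library of number 1 was the highest of all 8, and number 4 alone had more JUN in IPFSCs. JUN (ENSOCUG00000001212) had a log2 fold change of −0.23 (95% confidence interval −0.82 to 0.36, adjusted p = 0.801). Without ScASC replicate 1, the fold change of JUN was 0.0032 on the log2 scale.

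EGR1, a zinc finger factor induced by serum and mechanical load and known as a regulator of tendon and matrix genes in mice, had 115, 74.2, 102 and 119.5 RPKM in IPFSC replicates 1 to 4, against 119.3, 111, 119 and 65.6 RPKM in ScASC replicates 1 to 4. The lowest libraries carried different numbers, 2 in IPFSCs and 4 in ScASCs, and the other 6 libraries lay between 102 and 119.5 RPKM. EGR1 (ENSOCUG00000008439) had a log2 fold change of 0.0046 (95% confidence interval −0.50 to 0.51, adjusted p = 0.998).

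EGR2, known from mice for its role in hindbrain and Schwann cell development, was the least abundant of the 8 genes. It had 0.390, 0.441, 0.253 and 1.06 RPKM in IPFSC replicates 1 to 4, against 0.180, 0.145, 0.181 and 0.132 RPKM in ScASC replicates 1 to 4. All IPFSC libraries lay above all ScASC libraries, and IPFSC replicate 4 stood above the rest. Among the 16101 genes above 0 in at least 1 library, 5.25% were free of overlap in this direction. Once scaled by relative depth, the values were whole multiples of a common step within 0.05, with 12, 13, 8 and 32 steps in IPFSC replicates 1 to 4 and 6, 4, 6 and 4 steps in ScASC replicates 1 to 4. If a step is 1 read, EGR2 rests on few reads. In the fit with no filter on low RPKM, the log2 fold change of EGR2 (ENSOCUG00000013672) was 0.38 (95% confidence interval 0.06 to 0.70, adjusted p = 0.235 over 16101 genes, of which 3.44% were called, 1.91% higher in IPFSCs).

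ATF3 encodes a stress-induced bZIP protein that pairs with JUN and often represses its targets. It had 2.69, 2.11, 1.74 and 1.58 RPKM in IPFSC replicates 1 to 4, against 1.52, 0.676, 0.530 and 0.954 RPKM in ScASC replicates 1 to 4. The lowest IPFSC library lay just above the highest ScASC library, which was that of number 1. Among the tested genes, 6.07% were free of overlap in this direction and 11.8% in either. The means were 2.03 ± 0.497 RPKM in IPFSCs and 0.920 ± 0.436 RPKM in ScASCs (SD, n = 4 each). In steps, ATF3 had 80, 60, 53 and 46 in IPFSC replicates 1 to 4 and 49, 18, 17 and 28 in ScASC replicates 1 to 4. Its log2 fold change (ENSOCUG00000017424) was 0.67 (standard error 0.19, 95% confidence interval 0.23 to 1.11, adjusted p = 0.0956), higher in IPFSCs in 4 of 4 numbers. ATF3 exceeded the expression minimum through its IPFSC mean alone. In the limma fit with no filter on low RPKM, its adjusted p was 0.106 over 16101 genes. It was called in limma with the replicate number as a block (standard error 0.14, adjusted p = 0.0395), with array weights (adjusted p = 0.0341) and without ScASC replicate 1 (adjusted p = 0.0424), and its adjusted p ranged from 0.0341 to 0.237 over all alternatives in which it was tested. Without number 1 in both cell types the adjusted p was 0.0933. Over all genes, limma called 909 with the block, 811 with array weights and 562 without ScASC replicate 1, against 562 in the main fit.

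Some marker sums were also free of overlap between the cell types, as EGR2 and ATF3 were. The 4 synovial lining markers with an entry, of 5, summed to 14.3 to 23.2 RPKM in IPFSCs and 6.97 to 9.98 RPKM in ScASCs. None of the 4 was at 0 in every library, 2 lay above an RPKM of 1 in every library, and PRG4 was not analysed here. TSPAN15 was the highest of them in IPFSCs. HBEGF, which is also on the list of other immediate early genes, averaged 7.20 RPKM in IPFSCs and 3.97 RPKM in ScASCs. The 6 skeletal muscle markers with an entry summed to 1.17 to 2.69 RPKM in IPFSCs and 0.720 to 1.16 RPKM in ScASCs. Of these 6, 5 lay below an RPKM of 1 in every library. The 10 stromal markers, led by COL3A1, summed to 6884 to 10502 RPKM in IPFSCs and 11359 to 16828 RPKM in ScASCs. Whether these sums mark cells of those types was not tested. Their part in the levels of EGR2, ATF3 and the called genes named further on was not tested either.

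**Figure D2:**
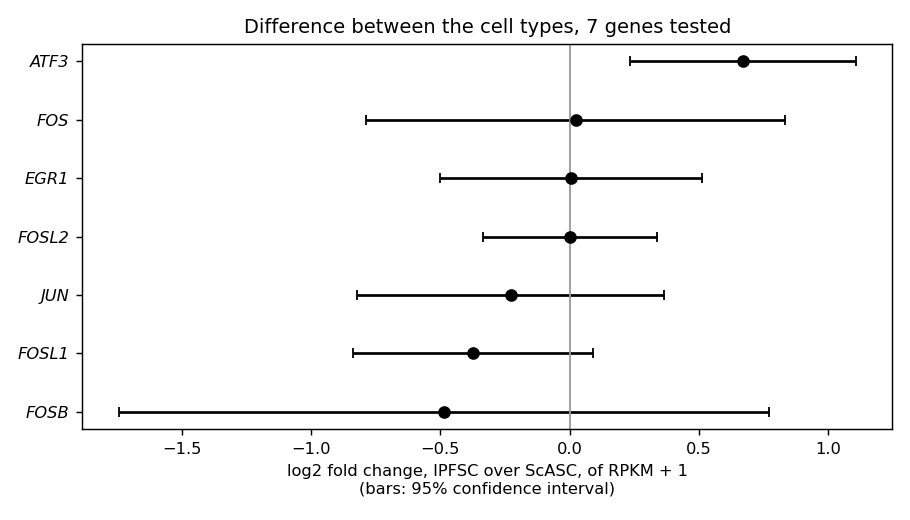
Log2 fold change of RPKM + 1, IPFSCs over ScASCs, for the 7 genes tested (points), with 95% confidence intervals from limma without the replicate block (bars, n = 4 per cell type). The interval of ATF3, 0.23 to 1.11, lies above 0, its adjusted p was 0.0956, and the other 6 intervals include 0.

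By mean RPKM over all libraries, the genes stood in the order FOS (127), EGR1 (103), FOSL2 (59.6), JUN (23.8), FOSB (10.3), FOSL1 (4.49), ATF3 (1.47) and EGR2 (0.348). FOS and EGR1 could not be parted, since FOS was the higher one in 6 of 8 libraries, with a ratio of 0.805 to 1.83. EGR1 exceeded FOSL2, FOSL2 exceeded JUN, and JUN exceeded FOSB in 8 of 8 libraries. FOSB and FOSL1 were nearly equal in ScASC replicate 4, with a ratio of 1.01, and differed up to 6.93-fold in IPFSC replicate 1. FOSL1 exceeded ATF3 in 7 libraries, and in IPFSC replicate 1 their ratio was 0.995.

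FOS supplied most of the FOS family transcripts in every library, and FOSL2 came next. Of the summed RPKM of the 4 family genes, FOS made up 62.5% ± 6.54 in IPFSCs and 60.9% ± 4.59 in ScASCs (SD, n = 4 each). FOSL2 made up 31.6% ± 7.47 in IPFSCs and 30.9% ± 6.02 in ScASCs (SD, n = 4 each). FOSB took 2.23% to 6.36% in IPFSCs and 3.06% to 7.62% in ScASCs, and FOSL1 took 0.917% to 2.90% in IPFSCs and 2.12% to 3.03% in ScASCs. All 4 shares overlapped between the cell types. The summed RPKM of the family was 292, 163, 176 and 161 in IPFSC replicates 1 to 4, against 319, 207, 162 and 131 in ScASC replicates 1 to 4. It exceeded the RPKM of JUN by 6.62-fold to 11.2-fold in IPFSCs and by 7.05-fold to 8.55-fold in ScASCs.

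**Figure D3:**
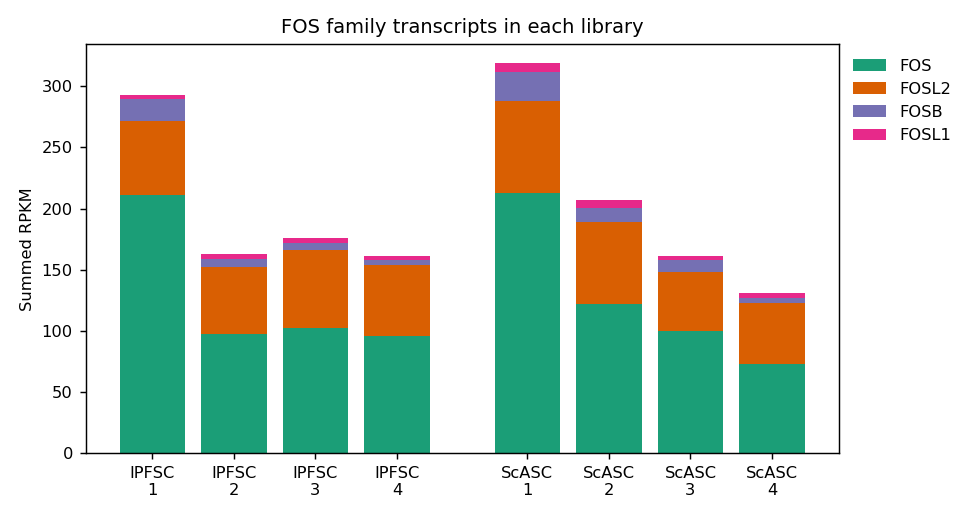
Stacked RPKM of the 4 FOS family genes in each library (y axis, summed RPKM, from 0), with IPFSC replicates 1 to 4 left of ScASC replicates 1 to 4. Number 1 has the tallest bar in both cell types, 292 in IPFSCs and 319 in ScASCs, and FOS is the largest segment of every bar.

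The replicate number parted the libraries more than the cell type did for FOS and FOSB. The sum of squares of log2(RPKM + 1) over the 8 libraries was split into parts for the cell type, the number and the remainder. With 4 numbers and 2 cell types, the part of the number is larger by construction, so each part is given beside its median over all tested genes. The number held 93.9% for FOS, 89.2% for FOSB, 59.1% for JUN and 26.2% to 38.9% for the other 4 genes, against a median of 55.1% over all tested genes. The cell type held 66.3% for ATF3 and 31.9% for FOSL1, against a median of 12.4% over all tested genes, and 0.00359% to 8.67% for the other 5 genes. After these values were seen, the number was tested in limma beside the cell type. It was called for FOS (adjusted p = 0.0406) and FOSB (adjusted p = 0.0155), 2 of the 7 genes, against 2.52% of all tested genes. JUN had an adjusted p of 0.265.

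The calls for the number depended on number 1 and, for FOS, on most other libraries too. In number 1, FOS was 2.14-fold the mean of the other numbers in IPFSCs and 2.15-fold in ScASCs, and FOSB was 3.68-fold in IPFSCs and 2.98-fold in ScASCs. Without number 1 in both cell types, limma called the number for 0 of the 7 genes (adjusted p = 0.402 for FOS and 0.122 for FOSB). Over all tested genes, that fit called 128 in place of 285 for the number. Leaving out 1 library at a time, FOS kept the call without replicate 3 of either cell type, and lost it without any of the other 6 libraries (adjusted p = 0.0662 to 0.160). FOSB lost it without IPFSC replicate 1, ScASC replicate 1 or ScASC replicate 4 (adjusted p = 0.0579 to 0.0865). The calls for the number over all tested genes moved likewise. They went from 285 to 645 without IPFSC replicate 3, 475 without ScASC replicate 3, and 51 to 113 without any other library. The losses are thus not particular to FOS and FOSB. With no filter on low RPKM, the adjusted p was 0.0989 for FOS and 0.0589 for FOSB.

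Number 1 held the highest IPFSC and the highest ScASC library for 4 of the 7 genes tested (FOS, FOSB, JUN and ATF3), against 10.4% of all tested genes. Number 1 was chosen after its values were seen. The summed RPKM of all genes was also highest in number 1 of each cell type, at 484788 in IPFSCs and 492341 in ScASCs, against 467330 to 478401 in the other IPFSC and 467398 to 473801 in the other ScASC libraries. Cell cycle genes followed the numbers too. Their 14 tested members summed to 555, 792, 540 and 283 RPKM in IPFSC replicates 1 to 4, against 635, 645, 361 and 303 RPKM in ScASC replicates 1 to 4, so that number 1 was not the highest. The part of these 2 measures in the levels of FOS and FOSB was not tested.

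**Figure D4:**
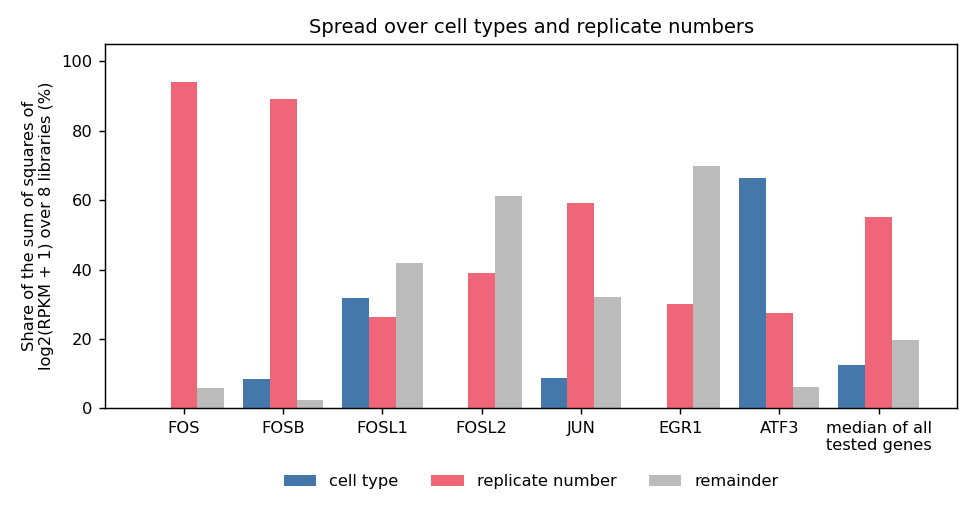
Share of the sum of squares of log2(RPKM + 1) over 8 libraries (y axis, %) held by the cell type, the replicate number and the remainder, for the 7 genes tested and as the median of each share over all 11294 tested genes. The number holds 93.9% for FOS and 89.2% for FOSB, and the cell type 66.3% for ATF3.

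Genes with a like pattern over the 8 libraries were found by centring the log2(RPKM + 1) of each gene on its mean and taking the root mean square difference. For FOSB, whose own spread on this scale was 0.84, the nearest genes were DUSP1 (0.37), the phosphatase that inactivates MAP kinases, FOS (0.41) and AKAP7 (0.45). For FOS, with a spread of 0.52, they were C12orf65 (0.24), TRIB1 (0.25) and ADAM22 (0.25). JUN, with a spread of 0.39, had BMP6 (0.20), CISD1 (0.21) and PDE3A (0.21) nearest. EGR1, with a spread of 0.31, had RPP25L (0.16), TMBIM1 (0.18) and EXO5 (0.18). FOSL1, with a spread of 0.33, had ETV4 (0.12), RPA3 (0.14) and NEURL1B (0.16), of which ETV4 is an ETS factor induced by ERK signaling. FOSL2, with a spread of 0.20, had CEP41 (0.064), TVP23A (0.079) and USP12 (0.084). ATF3, with a spread of 0.41, had DSE (0.099), DYSF (0.10) and FAT1 (0.12). These nearest genes were picked from 11294, and their likeness is a description.

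Of the other immediate early genes, 31 of 41 on the list were tested, of which 3 fell, 0 rose and 28 were not called by limma, where 2.31% of all tested genes fell and 2.67% rose. Their median log2 fold change was 0.09. The genes that fell in IPFSCs were SGK1, a serum- and glucocorticoid-induced kinase, NFKBIZ, an atypical nuclear IκB protein, and DUSP5, a nuclear phosphatase of ERK. SGK1 had 10.5, 10.8, 10.2 and 18.8 RPKM in IPFSC replicates 1 to 4, against 51.7 RPKM in ScASC replicate 1 and 95.3 to 107 RPKM in ScASC replicates 2 to 4. The cell types did not overlap, which held for 5.73% of the tested genes in this direction, and number 1, which held the most FOS, held the least SGK1 among ScASCs. On the log2 scale SGK1 differed by −2.71 (standard error 0.26, adjusted p = 0.00130).

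NFKBIZ had 9.74, 6.73, 5.90 and 12.1 RPKM in IPFSC replicates 1 to 4, against 29.4, 22.9, 20.7 and 18.3 RPKM in ScASC replicates 1 to 4. Its log2 fold change was −1.34 (adjusted p = 0.0116), with no overlap of the cell types, and its adjusted p was 0.0551 without number 1 in both cell types. DUSP5 had 2.50, 3.96, 2.36 and 4.35 RPKM in IPFSC replicates 1 to 4, against 8.09, 7.90, 5.63 and 6.19 RPKM in ScASC replicates 1 to 4. On the log2 scale DUSP5 differed by −0.91 (adjusted p = 0.0295), and the call was lost without ScASC replicate 1, 2 or 4, without IPFSC replicate 1 or 3, or without number 1 in both cell types (adjusted p = 0.0605 to 0.157). With the replicate number as a block, 1 gene of the list rose (BTG1, an antiproliferative gene, adjusted p = 0.0394) and 4 fell, NFKBIA among them (adjusted p = 0.0421), where 8.05% of all tested genes were called.

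DUSP1 followed the numbers as FOSB did. It had 148, 108, 80.4 and 56.4 RPKM in IPFSC replicates 1 to 4, against 224, 108, 73.0 and 54.8 RPKM in ScASC replicates 1 to 4. The order of the numbers was the same in both cell types, with 94.4% of the sum of squares in the number, and DUSP1 was the only gene of this list that was called for the number in limma (adjusted p = 0.0327). The orphan receptor gene NR4A1 had 10.4, 5.26, 5.63 and 3.83 RPKM in IPFSC replicates 1 to 4, against 14.5, 4.46, 2.37 and 3.05 RPKM in ScASC replicates 1 to 4, and did not pass that test (adjusted p = 0.0870). Number 1 was the highest in both cell types for 8 of the 31 genes, against 10.4% of all tested genes. This was not particular to immediate early genes. Of the lists given below, it held for 24.0% of the MAP kinases and their activators and 20.0% of the heat shock genes. In the remaining lists it held for 0% to 9.09%.

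The remaining EGR genes were scarce. EGR3 had 0.0482 to 1.79 RPKM in IPFSCs, against 1.37 to 2.995 RPKM in ScASCs, and its ranges overlapped (log2 fold change −0.74, adjusted p = 0.316). EGR4 was listed at 0 in all libraries but ScASC replicate 4, at 0.158 RPKM.

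**Figure D5:**
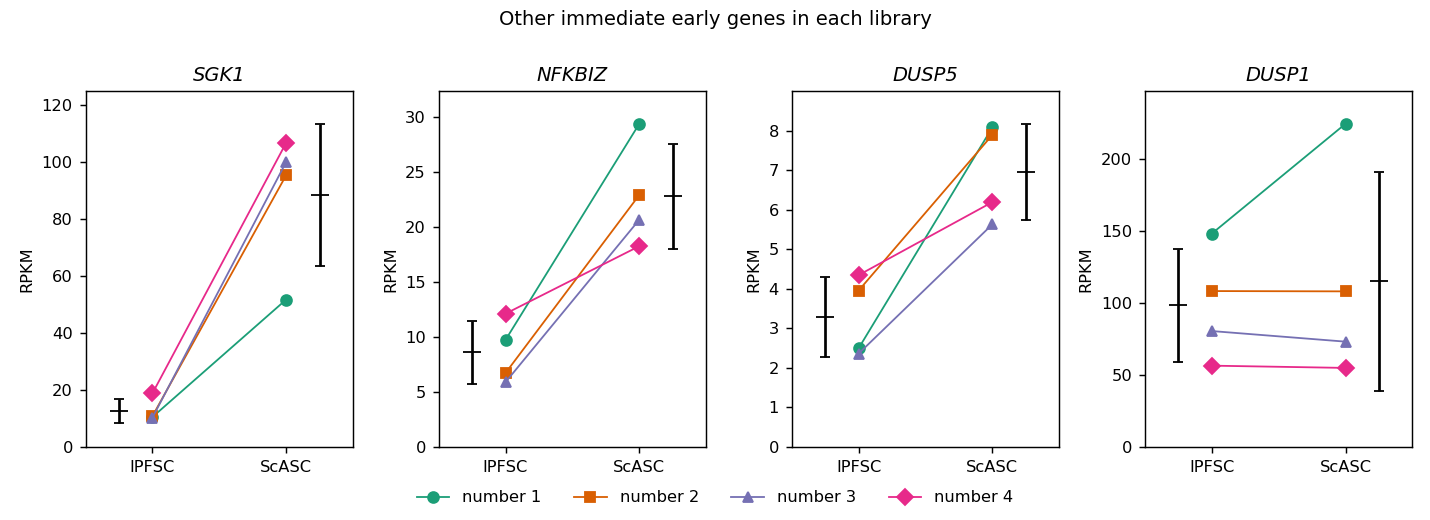
RPKM of 4 other immediate early genes in each library (y axes, linear from 0), with IPFSCs left of ScASCs; lines join libraries of the same replicate number, and black bars are the mean ± SD of 4 libraries. SGK1, NFKBIZ and DUSP5 are lower in every IPFSC library than in any ScASC library, and the values of DUSP1 follow the number.

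The lists of genes that act above AP-1 and EGR are given beside the 4.98% called over all genes. Of the MAP kinases and their activators, 25 of 30 were tested, of which 1 fell, 0 rose and 24 were not called by limma. RPS6KA3, which encodes RSK2, a kinase that ERK activates, had 15.1 ± 0.502 RPKM in IPFSCs and 26.8 ± 4.28 RPKM in ScASCs (SD, n = 4 each). Its fold change was −0.78 on the log2 scale (adjusted p = 0.00671). Of the MAP kinase phosphatases and feedback inhibitors, 13 of 17 were tested, of which 2 fell (DUSP5 and SPRY3), 0 rose and 11 were not called. SPRY3, a Sprouty family gene, had 6.50 ± 0.767 RPKM in IPFSCs and 12.0 ± 1.71 RPKM in ScASCs (SD, n = 4 each). Its fold change was −0.79 on the log2 scale (adjusted p = 0.00819).

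Of SRF, its cofactors and the EGR corepressors, 10 of 12 symbols were tested, older symbols included, and 0 were called in limma, with 0 at an unadjusted p under 0.05. SRF averaged 12.8 RPKM in IPFSCs and 14.3 RPKM in ScASCs, so that the log2 fold change was −0.13 (adjusted p = 0.873). Among the corepressor genes, NAB1 had a log2 fold change of 0.0018 (95% confidence interval −0.28 to 0.29) and NAB2 one of 0.15 (95% confidence interval −0.76 to 1.06). Of the other AP-1 related bZIP genes, 11 of 23 were tested, and 1 rose. That gene was CREB3, an endoplasmic reticulum-bound factor, with 58.6 ± 4.63 RPKM in IPFSCs and 44.4 ± 4.32 RPKM in ScASCs (SD, n = 4 each). Its fold change was 0.39 on the log2 scale (adjusted p = 0.0495). The call of CREB3 was lost in 10 of 20 settings, among them those without IPFSC replicate 1, 2 or 3 or without ScASC replicate 2, 3 or 4 (adjusted p = 0.0908 to 0.145). JDP2, a repressor that dimerizes with JUN, averaged 34.3 RPKM in IPFSCs and 40.6 RPKM in ScASCs (adjusted p = 0.291).

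The tested targets of AP-1 and EGR proteins moved in both directions. MMP13 and TGFB1, for which the study reported more RNA in IPFSCs, were on the list but not tested here. The counts below leave them out. Of 30 listed, 16 were tested, of which 2 rose, 2 fell and 12 were not called by limma, where 4.98% of all tested genes were called. Their median log2 fold change was 0.01, and 9 of the 16 had an unadjusted p under 0.05, where 16.5% of all tested genes did. Since the list was chosen with earlier results of these data known, this share is a description and no evidence of an excess. With the replicate number as a block, 3 rose, with the chemokine gene CCL2 added (adjusted p = 0.0192). PLAU, the urokinase gene, rose to 47.8, 52.3, 65.7 and 68.8 RPKM in IPFSC replicates 1 to 4, against 19.5, 17.2, 6.23 and 18.0 RPKM in ScASC replicates 1 to 4. No libraries overlapped, and on the log2 scale PLAU differed by 1.97 (adjusted p = 0.0100). CD44, the hyaluronan receptor gene, was the other that rose, to 131 ± 17.9 RPKM in IPFSCs against 59.2 ± 19.3 RPKM in ScASCs (SD, n = 4 each), and its call was lost without IPFSC replicate 1 or 3 (adjusted p = 0.0564 and 0.0626). IL1A, which encodes a cytokine of the inflammatory response, fell to 0.716 ± 0.358 RPKM in IPFSCs against 12.7 ± 0.970 RPKM in ScASCs (SD, n = 4 each). It exceeded the expression minimum through its ScASC mean alone, and its adjusted p in limma with no filter on low RPKM was 0.000216. FGF2, a fibroblast growth factor gene, fell too. FGF2 had 6.38, 8.50, 6.67 and 6.24 RPKM in IPFSC replicates 1 to 4, against 15.1, 12.7, 19.4 and 23.8 RPKM in ScASC replicates 1 to 4. On the log2 scale FGF2 differed by −1.21 (adjusted p = 0.00819), and without number 1 in both cell types its adjusted p was 0.0517.

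Of 20 heat shock and dissociation stress genes, 10 were tested, and 0 were called in limma, where 4.98% of all tested genes were, with 0 at an unadjusted p under 0.05 and a median log2 fold change of −0.09. They summed to 1582 to 1950 RPKM in IPFSCs and 1797 to 1962 RPKM in ScASCs, and the ranges overlapped. Of the 14 cell cycle genes tested, 0 were called between the cell types (0 at an unadjusted p under 0.05), and 5 were called for the replicate number (AURKA, BUB1, MCM2, MCM5 and PCNA), against 2.52% of all tested genes.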

How the data were processed

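Libraries were stranded mRNA libraries read from both ends. Per the labels and the study's methods, Subread placed the untrimmed reads on OryCun2.0, featureCounts assigned them to genes, and the authors scaled the result to RPKM; the strand setting is not given in the sources used here. The deposited values follow log2(RPKM + 1), a log2 scale read from the values, since after back-conversion 188 to 229 genes of low expression shared 1 ratio between each library and ScASC replicate 1. Values of 1e-05 were set to an RPKM of 0. The deposited columns of the authors' own edgeR comparison (fold changes, p-values, mean level) were not used. Read counts were not used here, and tests were run with limma 3.58.1 in R 4.3.3. Repeated identifiers were dropped (20595 entries, 20586 genes).

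The fit was limma's moderated test with a variance trend on log2(RPKM + 1) of the 11294 genes that exceeded a mean RPKM of 1 in IPFSCs or ScASCs, and the cell type was its sole term. The code was tested on simulated data. Members and lists were chosen with earlier results of these data known. Named genes are all members, every called gene of a list with 6 or fewer calls, the 3 genes nearest in pattern to each member, and the leading markers and those at 0; BTG1, NFKBIA, DUSP1, NR4A1, CCL2, EGR3, EGR4, SRF, NAB1, NAB2, JDP2 and the cell cycle genes were named after their values were seen. Replicate numbers were taken to pair the samples, since deviations from the group means correlated in every pair (0.534, 0.550, 0.253 and 0.659 across genes for numbers 1 to 4), although ScASC replicate 3 correlated more with the IPFSC library of another number (0.329). The study's methods name 4 donor rabbits. Alternatives were the replicate block, pseudocounts of 0.1 and 0.5, no filter or a minimum mean RPKM of 5, median-ratio and quantile scaling, no variance trend, robust empirical Bayes, array weights and leaving out each library. The test of the replicate number and the fit without number 1 in both cell types were added after the data were seen.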

Additional observations from a re-analysis of the deposited data

Results flagged for a closer look

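In groups of 4 libraries, 1 library stood apart from the others by more than Dixon's 95% critical value (gap over range on the log2 scale) in 9 of 90 groups examined, 2 of them among the 16 groups of the AP-1 and EGR genes. Chance gives about 1 in 20 for independent groups. These groups were not independent, since they include genes picked for a like pattern and genes named after their values were seen. No excess can therefore be read from the counts. FOS in IPFSCs had a value of 0.920, from the high replicate 1. EGR1 in ScASCs had 0.874, from the low replicate 4. SGK1 had 0.916 in IPFSCs, from the high replicate 4, and 0.844 in ScASCs, from the low replicate 1. PLAU in ScASCs had 0.884, from the low replicate 3. Among the genes nearest in pattern, TRIB1 in IPFSCs had 0.832, BMP6 in ScASCs had 0.851 and PDE3A in IPFSCs had 0.840. EGR4 in ScASCs had 1.0, since 1 library alone lay above 0.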

How the results depend on the processing

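Of 350 values recomputed under an alternative, 281 kept their direction and their side of the threshold or stayed within 1.5 times the count. With the replicate block, 909 genes were called in place of 562, 1 in place of 0 AP-1 and EGR genes (ATF3) and 5 in place of 3 other immediate early genes; it changed no other call of a named gene or count of a list by over 1.5 times, except that CCL2 was called (adjusted p = 0.0192). Array weights called 811 genes in place of 562 between the cell types, and 473 in place of 285 for the replicate number. They called 1 AP-1 or EGR gene, 5 other immediate early genes and 3 MAP kinase phosphatases in place of 2. No bZIP gene was called (0 in place of 1) with no filter, with a minimum mean RPKM of 5 or with no variance trend. The replicate number was called for 76 genes and 0 members with no filter, 165 genes and 1 member with no trend, and 1 member with quantile normalization. Without number 1 in both cell types, 300 genes were called between the cell types, and 128 genes and 0 members for the number. EGR1 changed sign with quantile normalization (−0.025) and array weights (−0.0053). The causes were not tested.

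Leaving out 1 library at a time gave 315 to 562 genes called between the cell types, 0 to 1 AP-1 and EGR genes, 2 to 5 other immediate early genes, 0 to 1 bZIP genes, 1 to 2 MAP kinases, 1 to 3 phosphatases, and 51 to 645 genes and 0 to 2 members for the number. The count between the cell types was lowest without IPFSC replicate 3 (315), IPFSC replicate 1 (369) or ScASC replicate 2 (348). The count for the number was above 285 without replicate 3 of IPFSCs (645) or ScASCs (475) and 51 to 113 without any other library. The log2 fold changes then ranged from −0.25 to 0.31 for FOS, −0.20 to 0.15 for EGR1, −0.10 to 0.12 for FOSL2 and −0.41 to 0.0032 for JUN, all without a call. FOSB (−0.49) ranged from −0.92 without IPFSC replicate 1 and −0.87 without ScASC replicate 4 to −0.22 without IPFSC replicate 4 and −0.095 without ScASC replicate 1, and was −0.20 with array weights. FOSL1 (−0.38) was −0.14 without number 1 in both cell types. None of these was called. With depth unknown, the read numbers behind EGR2 and ATF3 can be judged only from their steps, if a step is 1 read.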
